A study of Homo sapiens with 6 samples.

Results

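The cytosolic ribosomal protein genes were examined in RNA-seq libraries of U87 cells, an established human glioma line. They were taken as the protein-coding genes whose symbol is RPL or RPS with a number (an A or X may follow) or is RPLP0, RPLP1, RPLP2 or RPSA, and that had at least 10 counts in at least 3 libraries. This gave 76 of the 57905 genes listed, 46 of the large and 30 of the small ribosomal subunit. The symbol rule alone gave 77 genes. RPL36A was the member nearest the minimum, with 33, 25 and 20 counts in the siRBM47 libraries and 34, 40 and 20 in the controls.

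Of the 6 libraries, 3 came from cells labelled siRBM47 in both genotype and treatment, given 100 pmol of a small interfering RNA by lipid transfection, and 3 from control cells of genotype WT with the treatment no. The siRNA targets RBM47, which encodes a protein that binds RNA and acts on the splicing, stability and editing of messages. The comparison asks which transcripts differ between the libraries labelled siRBM47 and the controls. The labels do not say whether control cells were transfected, so transfection and any loss of RBM47 cannot be told apart. Nor do they say that replicates were separate cultures, and the tests therefore weigh differences only against a spread that could be technical.

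The ribosome is the particle that translates messenger RNA into protein, and each of its subunits is ribosomal RNA held with many small proteins. Cells make these proteins in matched amounts, and their messages are among the most abundant of a growing cell. Most human ribosomal protein messages begin with a C followed by a run of pyrimidines, the terminal oligopyrimidine (TOP) motif, through which their translation follows the kinase mTOR and the RNA-binding protein LARP1.

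The starts of 12 members are shown because the results below turn on them or because they show the motif at its plainest and its absence. Each window holds 30 bases of the gene's strand from RefSeq (GRCh38.p14), 15 on either side of the annotated start. Capitals mark a pyrimidine run of 5 or more that opens with C at the start base. The coordinates are chr17:8383179-8383208 (minus strand) for RPL26, chr5:82278340-82278369 (minus) for RPS23, chr19:5690280-5690309 (plus) for RPL36 and chr19:48619164-48619193 (minus) for RPL18. They are chr9:133348203-133348232 (plus) for RPL7A, chr11:119018329-119018358 (minus) for RPS25, chr12:56041903-56041932 (plus) for RPS26 and chr14:49598696-49598725 (minus) for RPS29. They are chr19:49487593-49487622 (plus) for RPL13A, chr12:120201097-120201126 (minus) for RPLP0, chr9:19380222-19380251 (minus) for RPS6 and chr12:56116618-56116647 (plus) for RPL41.
RPL26: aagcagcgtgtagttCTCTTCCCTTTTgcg
RPS23: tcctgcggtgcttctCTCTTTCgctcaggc
RPL36: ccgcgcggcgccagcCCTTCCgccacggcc
RPL18: accccagcccgttctCTCTTTCCggacctg
RPL7A: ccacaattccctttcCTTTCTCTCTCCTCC
RPS25: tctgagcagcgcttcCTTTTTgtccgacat
RPS26: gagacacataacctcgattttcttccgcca
RPS29: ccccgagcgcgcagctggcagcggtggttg
RPL13A: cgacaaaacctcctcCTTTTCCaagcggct
RPLP0: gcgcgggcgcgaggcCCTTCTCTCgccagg
RPS6: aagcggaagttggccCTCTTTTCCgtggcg
RPL41: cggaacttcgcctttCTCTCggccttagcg

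The run of RPL26 was 12 bases long and that of RPL7A 16, which passes the end of the window. RPS26 and RPS29 had no such run at the annotated start. RefSeq starts were matched by symbol for 62 of the 76 members, of which 10 had several. A start that opens with C and at least 4 more C or T was found for 46 of these 62 members (74.2%), against 4.98% of 27243 other genes and 5.14% of all 27305 genes of the table. The median run of those 46 members was 8 bases and the longest of any member 19. The letters CTCTTTCC on the gene's strand within 25 bases of the start were present for 16.1% of members and 0.374% of other genes. In the 300 bases from 250 before to 50 after the start, on either strand, CCGGAAG stood in 35.5% of members and 12.1% of other genes. AAGATGG stood in 12.9% of members and 7.10% of other genes, and GGGCGG in 58.1% of members and 48.3% of other genes. TATAAA stood in 8.06% of members and 14% of other genes. These are matches of letters in a fixed window and not measured sites.

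**Figure D1:**
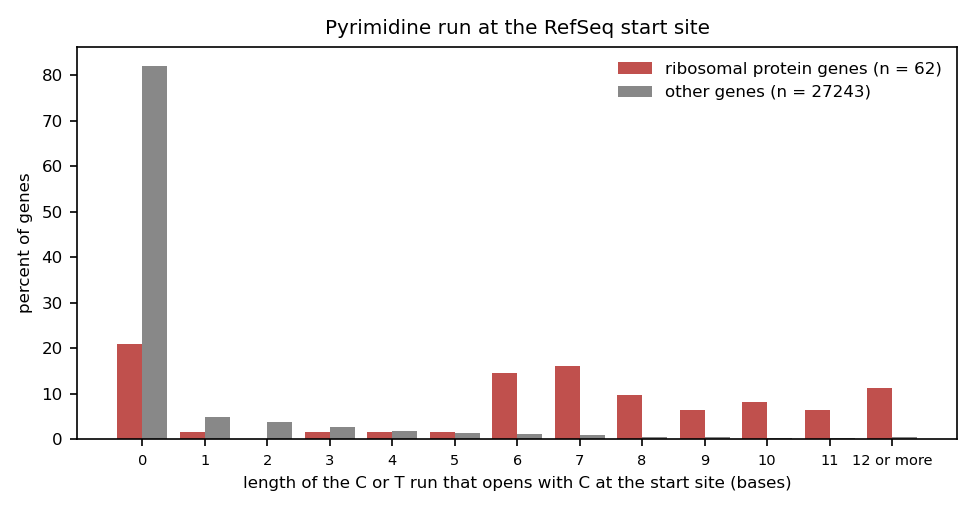
Length in bases of the C/T run that opens with C at the annotated start (x axis), as the percent of genes (y axis). Shown are the ribosomal protein genes matched in RefSeq and all other genes of the same table. Genes with no start that opens with C are set at 0, and the longest such run is taken where a gene has several starts. Runs of 5 or more that open with C were found for 74.2% of the ribosomal protein genes and 4.98% of the others.

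Gene counts summed to between 15575297 and 18128549 per library. The targeted gene was not lower in the libraries labelled siRBM47: RBM47 was at 3.54, 2.74 and 2.23 CPM (counts relative to the normalized library size) there and at 1.62, 1.73 and 5.75 in the controls. The log2 fold change of siRBM47 over control was -0.11 (SE 0.50, edgeR quasi-likelihood test, Benjamini-Hochberg adjusted p = 0.942), so the label siRBM47 is used below as given, without a check from the message of its target. Control replicate 3 stood apart from the rest of its group: its log2 CPM over all tested genes correlated at 0.941 and 0.950 with control replicates 1 and 2, which correlated with each other at 0.988. Results are therefore given with and without this library. Without it the log2 fold change of RBM47 was 0.76 (edgeR adjusted p = 0.156), the opposite sign. Of 8 glioma and glial markers 7 were tested, S100B having under 10 counts in all. The sum of all 8 was 4128 to 5759 CPM in siRBM47 and 3932 to 5500 CPM in control libraries. For this and the other marker sums, CPM is relative to the unscaled total of each library. Summed immune markers were at 23.7 to 32.1 CPM in siRBM47 and 11.4 to 26.3 CPM in control libraries, with AIF1 at 0 throughout. In siRBM47 libraries endothelial markers were at 6.88 to 8.86, epithelial at 22.3 to 27.0 and neuronal at 18.8 to 30.3 CPM. In control libraries endothelial markers were at 11.4 to 14.3, epithelial at 18.3 to 39.9 and neuronal at 13.6 to 17.0 CPM. The part of these markers in the results was not tested.

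As a pool, the ribosomal protein genes held 6.42%, 6.85% and 7.15% of all gene counts in siRBM47 replicates 1 to 3, and 9.03%, 8.25% and 5.30% in control replicates 1 to 3. The siRBM47 libraries lay close together and inside the span of the controls, of which control 3 was the lowest of all libraries and controls 1 and 2 the highest. The mean share was 6.81% ± 0.362 in siRBM47 and 7.53% ± 1.97 in control libraries (SD, n = 3 each), a log2 ratio of -0.15, smaller than the SD of 0.296 within groups on that scale. Without control replicate 3 the log2 ratio was -0.34, and without control replicate 1 it was 0.01. In bulk RNA a smaller share cannot be told apart from more RNA of other genes, nor fewer cells of a type from less RNA per cell.

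The subunits taken separately gave group means in the same order, within the spread of the controls. Large subunit genes took 4.20% ± 0.269 of counts in siRBM47 and 4.74% ± 1.29 in control libraries, and small subunit genes 2.61% ± 0.0992 in siRBM47 and 2.79% ± 0.676 in control libraries (SD, n = 3 each). Per length, as the share of summed FPKM (fragments relative to gene length and library size), the pool held 7.23%, 7.44% and 8.13% in siRBM47 and 8.94%, 8.71% and 6.43% in control libraries, again with control 3 lowest. Mitochondrially encoded genes, another abundant class, took 3.98%, 4.20% and 3.01% of counts in siRBM47 and 5.74%, 4.59% and 3.53% in control libraries. Their part in the result was not tested, and with them out of the total the log2 ratio was -0.16.

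**Figure D2:**
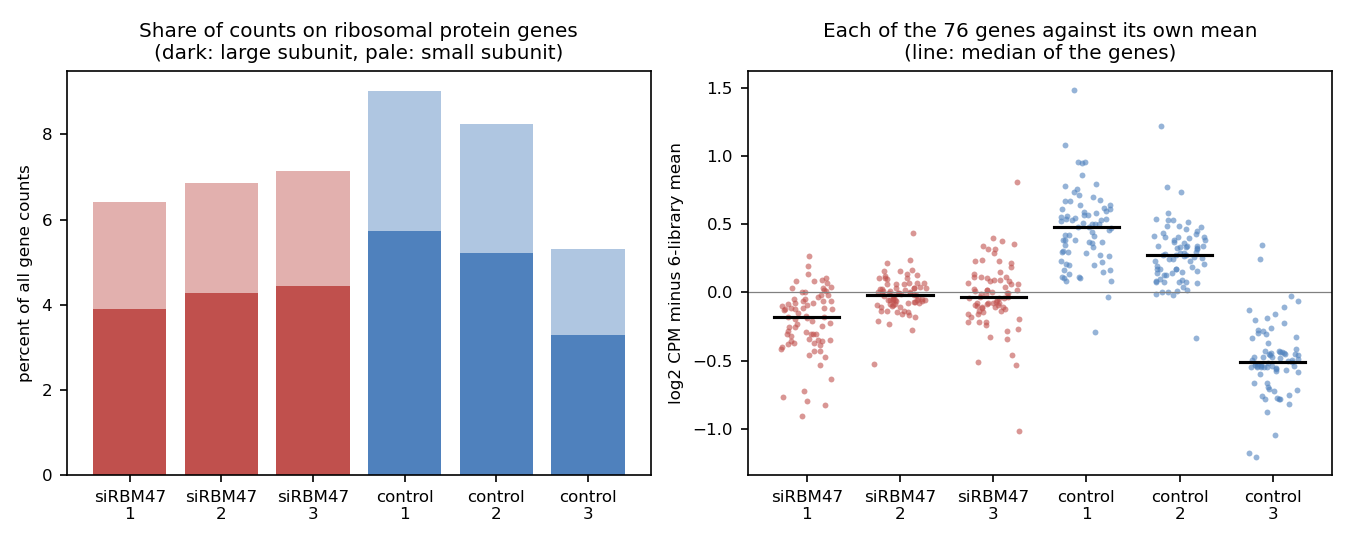
Percent of each library's gene counts on the ribosomal protein genes, and the deviation of each gene's log2 level from its own mean over the libraries, by library, with siRBM47 left of control. The siRBM47 libraries lie between 6.42% and 7.15%, and the control libraries spread from 5.30% (replicate 3) to 9.03% (replicate 1).

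Gene by gene, control 3 held the lowest of the 6 levels for 61 of the 76 members, and control 1 the highest for 61. Control 3 was the lowest control for 75 members, the exception being RPL17. The median log2 deviation of a member from its own mean was -0.18, -0.02 and -0.04 in siRBM47 replicates 1 to 3, and 0.48, 0.28 and -0.51 in control replicates 1 to 3. The SD was a median 10.6% of the mean in siRBM47 and 31.7% in control libraries, and it was larger in the controls for 71 of 76 members.

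All 76 members were tested, and none passed an adjusted p of 0.05 in the edgeR fit over 14578 genes, where 0.137% of all genes were lower and 0.0823% higher. At an unadjusted p under 0.05 there were 5 lower and 1 higher member, beside 8.94% and 7.15% of all genes. Limma-voom called 0 members, beside 0.144% of all genes lower and 0.0892% higher, and DESeq2 called RPL26 and RPL23A lower, beside 2.59% lower and 1.78% higher. Without a count filter edgeR called 5 members lower and 1 higher, beside 1.76% and 1.2% of all genes, and with the replicate number as a block it called 0, beside 0.165% lower and 0.103% higher. Log2 fold changes were negative for 61 and positive for 15 members, where 51.2% of all tested genes were negative and 48.8% positive. Their median was -0.21, against -0.01 over all tested genes; it was -0.29 for the 46 large subunit genes and -0.15 for the 30 small subunit genes. The extremes were RPL26 at -1.79 and RPS23 at 0.83, and 64 members lay within 0.5 of no change. The levels of the groups did not overlap for 2 lower members (RPL26 and RPL23A) and 1 higher member (RPS23), beside 11.0% and 11.6% of all genes.

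Without control replicate 3, 39 members were lower and 1 was higher at an adjusted p of 0.05 (edgeR), beside 11.2% and 9.97% of all 14889 genes tested. Of the lower ones 26 were of the large and 13 of the small subunit, and the higher one was RPS23. The median log2 fold change of the members was then -0.44, against 0.02 over all genes. This fit rests on control replicates 1 and 2, which differed least of all same-group pairs by a chi-square test of their counts (10.84 per degree of freedom, against 147.7 and 119.6 for control 3 with each of them and 15.29 to 37.65 among siRBM47 libraries). The log2 level of control 3 was lower than that of controls 1 and 2 by a median difference of -0.86 over the members, a larger gap than the -0.45 between the siRBM47 libraries and the same controls.

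**Figure D3:**
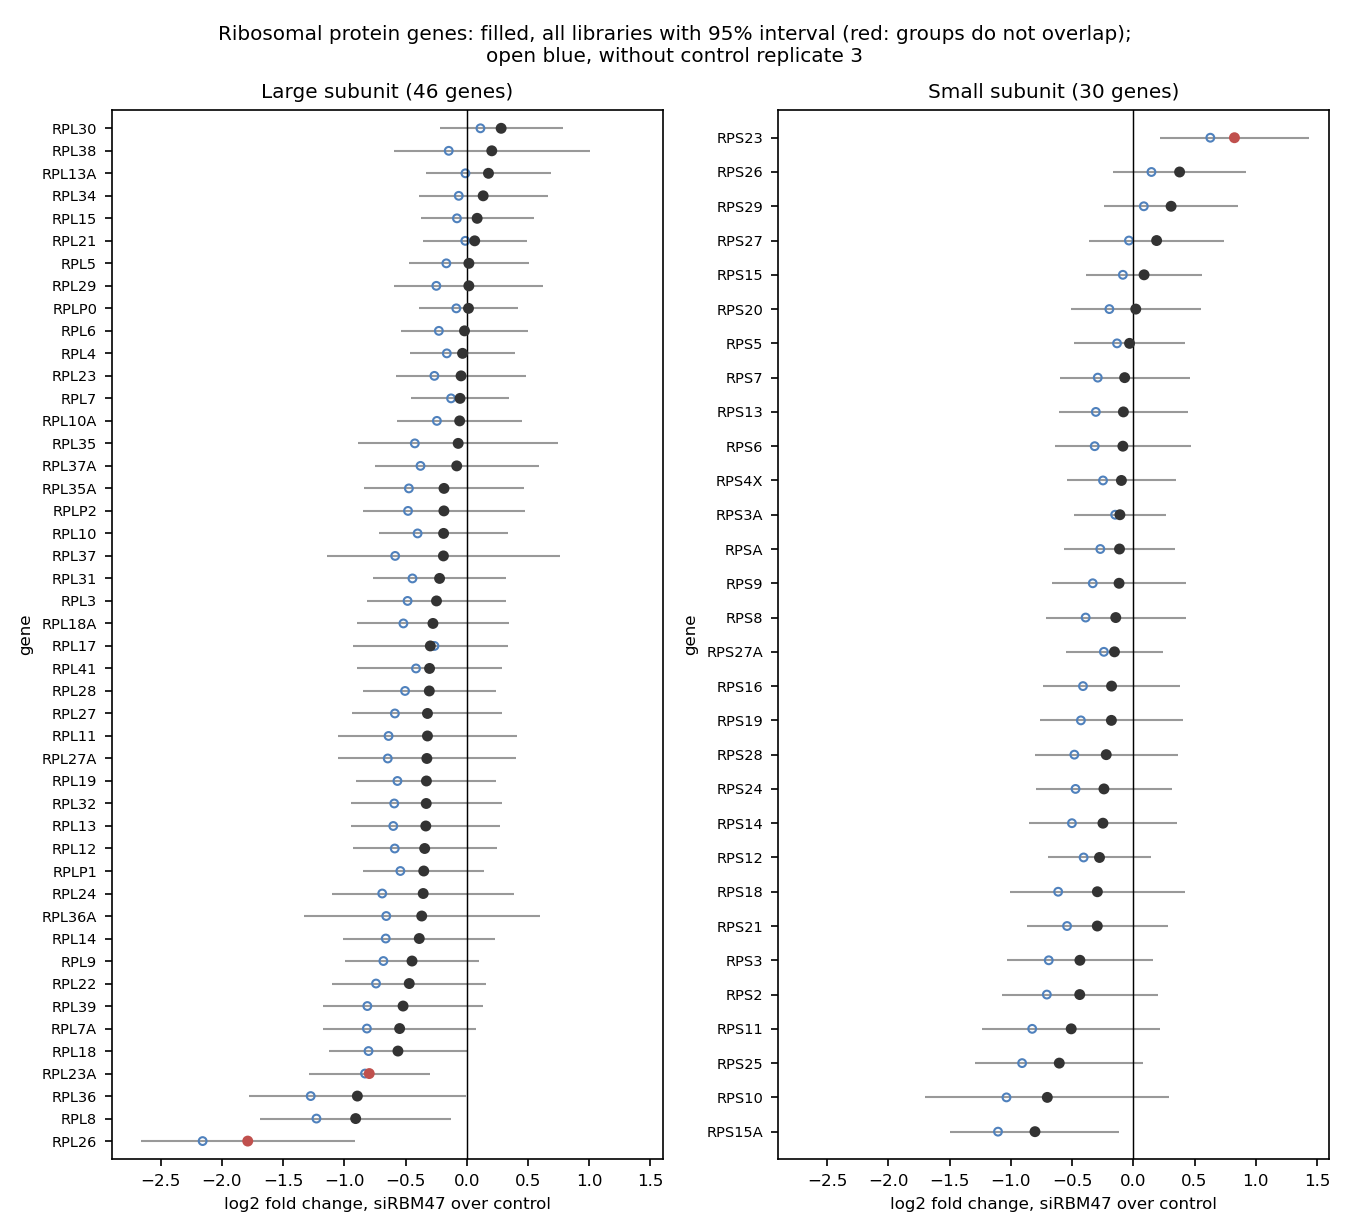
Log2 fold change of siRBM47 over control for each ribosomal protein gene, with filled points and 95% intervals for all libraries (red where the groups do not overlap) and open blue points without control replicate 3. RPL26 at -1.79 and RPS23 at 0.83 are the extremes, and the median is -0.21 with all libraries and -0.44 without control replicate 3.

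RPL26 (ENSG00000161970, GRCh38 chromosome 17, 8377516 to 8383250, minus strand), a protein of the large subunit, had the lowest fold change. RPL26 was at 21.3, 27.8 and 19.8 CPM in siRBM47 and 112, 92.9 and 33.3 CPM in control libraries. Every siRBM47 library lay below every control, of which control 3 was the nearest. Its fitted log2 fold change of -1.79 had an SE of 0.39 and a 95% interval of -2.66 to -0.91 (edgeR adjusted p = 0.0929), and DESeq2 gave an adjusted p of 5.45e-04. Without control 3 RPL26 fell by 2.16 on the log2 scale (edgeR adjusted p = 8.28e-06). Exons of another gene on the same strand overlap 14.3% of its exons. With the counts of its pseudogenes added the log2 fold change was -1.40 (edgeR adjusted p = 0.117). The paralog RPL26L1 was at 92.6 ± 6.16 CPM in siRBM47 and 85.2 ± 23.7 CPM in control libraries (SD, n = 3 each).

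RPL23A, which sits at the exit of the peptide tunnel, was at 218, 362 and 248 CPM in siRBM47 and 460, 521 and 456 CPM in control libraries. The groups did not overlap, and here control 3 lay with its group. The log2 fold change was -0.80 (SE 0.22, edgeR adjusted p = 0.139, DESeq2 adjusted p = 0.0315), and without control 3 it fell by 0.83 (edgeR adjusted p = 0.00781). RPL23A has 88 listed pseudogenes, with 1200, 1261 and 1412 summed counts in siRBM47 and 1078, 1260 and 1450 in control libraries, so reads shared with near-identical copies leave its level uncertain. With these counts added the log2 fold change was -0.67 (edgeR adjusted p = 0.166). As a percent of the summed counts of all members, the groups overlapped for RPL23A, with siRBM47 replicate 2 at 0.518% and control replicate 1 at 0.484%.

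RPL8, a protein close to the centre where peptide bonds form, was at 729, 1234 and 1021 CPM in siRBM47 and 2504, 2153 and 937 CPM in control libraries. Control 3 lay among the siRBM47 libraries, and the other controls above all of them. The log2 fold change was -0.91 (SE 0.35, edgeR adjusted p = 0.247), and without control 3 RPL8 fell by 1.23 (edgeR adjusted p = 6.40e-04).

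RPL36 of the large subunit was at 258, 374 and 320 CPM in siRBM47 and 852, 686 and 233 CPM in control libraries, with control 3 below all others. RPS15A of the small subunit was at 98.4, 107 and 91.7 CPM in siRBM47 and 244, 182 and 92.5 CPM in control libraries, with control 3 again among the siRBM47 values. Their log2 fold changes were -0.89 (SE 0.40, edgeR adjusted p = 0.307) and -0.80 (SE 0.31, edgeR adjusted p = 0.248). RPL36 fell by 1.27 and RPS15A by 1.10 without control 3 (edgeR adjusted p = 2.48e-04 and 4.97e-04). Exons of HSD11B1L on the same strand overlap 17.6% of those of RPL36.

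RPL18, RPL7A and RPS25 (the last needed for initiation from some viral messages) were highest in controls 1 and 2. RPL7A was at 992, 1285 and 1132 CPM in siRBM47 and 2132, 1867 and 985 CPM in control libraries, with control 3 below all others. The log2 fold changes were -0.56 for RPL18, -0.55 for RPL7A and -0.60 for RPS25 (edgeR adjusted p = 0.314, 0.372 and 0.372). They fell by 0.80, 0.82 and 0.91 without control 3 (edgeR adjusted p = 0.00185, 0.00191 and 0.00134).

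**Figure D4:**
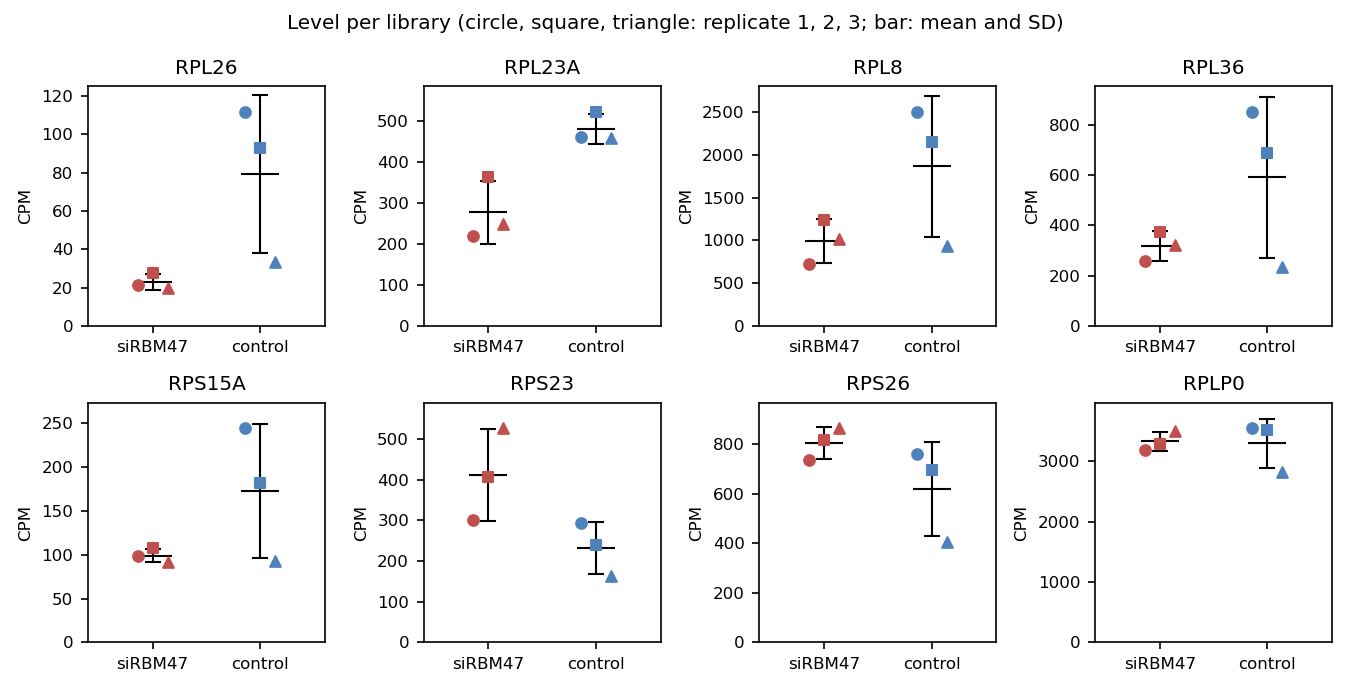
CPM of 8 ribosomal protein genes in each library (circle, square and triangle for replicates 1, 2 and 3), with mean and SD bars, siRBM47 left of control. Control replicate 3 is the lowest control in all 8 panels, and RPL26 is at 19.8 to 27.8 CPM in siRBM47 libraries, below 33.3 CPM in control replicate 3.

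RPS23 (ENSG00000186468, GRCh38 chromosome 5, 82273358 to 82278577, minus strand), a protein of the decoding centre, had the highest fold change. It was at 301, 406 and 526 CPM in siRBM47 and 293, 239 and 164 CPM in control libraries. The groups did not overlap, but siRBM47 replicate 1 and control replicate 1 nearly met. The fitted log2 fold change of 0.83 had an SE of 0.27 and a 95% interval of 0.22 to 1.43 (edgeR adjusted p = 0.190), and without control 3 RPS23 rose by 0.63 (edgeR adjusted p = 0.0416). Its exons overlap those of ATG10 on the other strand over 8.9% of their length, and the library kit does not mark strand. The members with the most overlap of this kind were RPL10 (52.7%), RPL30 (21.6%), RPS28 (21.4%), RPS25 (20.8%) and RPL38 (17.7%), so that reads of these genes and of their opposite-strand neighbours may not be separable.

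Other members with positive fold changes were RPS26, which lines the channel where messages leave the small subunit, the zinc-binding RPS29 and RPS27, and RPL30. RPS26 was at 735, 816 and 865 CPM in siRBM47 and 759, 694 and 406 CPM in control libraries, and the groups overlapped. Its log2 fold change was 0.38 (SE 0.24, edgeR adjusted p = 0.483), and those of RPS29, RPL30, RPL38 and RPS27 were 0.31, 0.28, 0.20 and 0.19. RPL13A, also known from a complex that silences inflammatory messages, was at 0.18 and RPL34 at 0.13. Without control 3 these were 0.15 for RPS26, 0.09 for RPS29, 0.11 for RPL30, -0.15 for RPL38, -0.04 for RPS27, -0.01 for RPL13A and -0.07 for RPL34, and edgeR called none of these 7.

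Among the stalk proteins that recruit elongation factors, RPLP0 was at 3192, 3289 and 3499 CPM in siRBM47 and 3545, 3514 and 2823 CPM in control libraries. The groups overlapped, with a log2 fold change of 0.01, an SE of 0.18 and a 95% interval of -0.39 to 0.42. RPLP1 was at -0.35 and RPLP2 at -0.19, and without control 3 both fell, by 0.54 and 0.48 (edgeR adjusted p = 0.0110 and 0.0286). RPL5 and RPL11, which together bind and restrain MDM2 when ribosome assembly fails, were at 0.02 and -0.32. RPL11 had 638, 799 and 898 CPM in siRBM47 and 1323, 1100 and 493 CPM in control libraries, and without control 3 it fell by 0.64 (edgeR adjusted p = 0.0130) while RPL5 was at -0.17 (edgeR adjusted p = 0.423). Over all fits with a library left out, the log2 fold change of RPL11 ran from -0.64 to -0.0270.

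RPS6, the substrate of the S6 kinases, was at a log2 fold change of -0.09, RPSA at -0.11, the X-linked RPS4X at -0.10 and RPS27A, made as a fusion with ubiquitin, at -0.15. Without control 3 they were at -0.32 for RPS6, -0.27 for RPSA, -0.25 for RPS4X and -0.24 for RPS27A, and none of these 4 passed (edgeR adjusted p = 0.135, 0.154, 0.193 and 0.221). RPL39 and RPL41 are among the smallest ribosomal proteins, and RPL39 lines the peptide tunnel. RPL39 was at -0.52, and fell by 0.81 without control 3 (edgeR adjusted p = 0.00200), while RPL41 was at -0.30 and then at -0.41 (edgeR adjusted p = 0.196).

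Levels per length differed widely among members. Mean FPKM over the 6 libraries ran from 0.422 for RPL36A to 1555 for RPS12, with a median of 280, against 4.08 over all tested genes, and 65 members were at 100 or more. The highest after RPS12 were RPS27 at 923, RPLP0 at 820, RPL41 at 819 and RPL35 at 757 FPKM. RPS12 averaged 1410 ± 58.3 FPKM in siRBM47 and 1700 ± 285 FPKM in control libraries, and RPL35 averaged 740 ± 124 FPKM in siRBM47 and 774 ± 394 FPKM in control libraries (SD, n = 3 each). The lowest after RPL36A were RPS10 at 1.66, RPL17 at 3.12, RPS15A at 20.2 and RPL26 at 20.5 FPKM.

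For RPS10, RPL17 and RPL36A the annotation holds readthrough genes that could share their reads. Exons of RPS10 overlap those of the readthrough gene RPS10-NUDT3 over 39.4% of their length, those of RPL17 the readthrough RPL17-C18orf32 and snoRNAs over 32.7%, and those of RPL36A the readthrough RPL36A-HNRNPH2 over 8.4%. RPL36A pseudogenes held 3605, 3842 and 3752 counts in siRBM47 and 3692, 3292 and 1962 in control libraries, against the 20 to 40 of the gene itself. RPL17 had 99, 144 and 127 counts in siRBM47 and 91, 181 and 168 in control libraries, and its pseudogenes 660, 684 and 790 in siRBM47 and 603, 619 and 498 in control libraries. RPS15A, also low, had 3.3% overlap on its strand and 0 to 9 pseudogene counts per library, and RPS2, with 25.6% overlap and 6581 to 9718 pseudogene counts, was at 611 FPKM. Why these members were low was not tested. The levels of RPS10, RPL17 and RPL36A are uncertain, and with pseudogenes added the log2 fold change of RPL17 turned from -0.30 to 0.13 and that of RPL36A from -0.37 to 0.20.

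Every member had listed pseudogenes, 1565 in all, of which 101 were tested. The pseudogenes together held 0.294% ± 0.0249 of counts in siRBM47 and 0.303% ± 0.0672 in control libraries (SD, n = 3 each). Their median log2 fold change was -0.03, and edgeR and limma-voom called 0 of them while DESeq2 called 5 higher and 2 lower, beside 1.78% and 2.59% of all tested genes. At an unadjusted edgeR p under 0.05 there were 12 higher and 8 lower pseudogenes, beside 7.15% and 8.94% of all tested genes. Without control 3 their median was -0.20, with 8 called higher and 13 lower, beside 9.97% and 11.2%. Small nucleolar RNAs lie inside 28 members, whose median log2 fold change was -0.22, against -0.20 for the 48 others.

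The make-up of the pool itself was then compared. A member's share was taken as its percent of the summed counts of all 76, a scale on which a rise of some members lowers others. The groups did not overlap for 13 higher and 9 lower members, beside 9.76% and 6.85% of all tested genes scaled by the same sums. The divisor is built from the members, so it takes out the swing they share and adds it to other genes. The shares of members and of all genes are thus not alike in kind, and no conclusion is drawn from setting them side by side. On CPM the groups did not overlap for 1 higher and 2 lower members, beside 11.6% and 11.0% of all genes. RPS26 made up 1.18%, 1.17% and 1.23% of the pool in siRBM47 and 0.797%, 0.829% and 0.793% in control libraries. All controls, control 3 included, lay close together here, and the ratio of the means was 1.48.

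RPS29 made up 0.283%, 0.267% and 0.318% of the pool in siRBM47 and 0.208%, 0.203% and 0.206% in control libraries, a ratio of 1.41. RPS27 made up 1.35%, 1.37% and 1.44% in siRBM47 and 1.11%, 1.03% and 1.06% in control libraries, a ratio of 1.30. RPS23 made up 0.482%, 0.579% and 0.75% in siRBM47 and 0.308%, 0.285% and 0.320% in control libraries, a ratio of 1.98. For each of these 3 genes the controls lay closer together than the siRBM47 libraries. The other higher members were RPL38, RPL30, RPL13A, RPL34, RPL15, RPL29, RPS20, RPL6 and RPS6, with ratios of 1.07 (RPS6) to 1.38 (RPL38).

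The lower members were RPL26 (ratio 0.348), RPL8 (0.623), RPS15A (0.674), RPL18, RPL7A, RPL39, RPL22, RPL9 and RPS3 (0.848). RPL8 made up 1.17%, 1.76% and 1.46% of the pool in siRBM47 and 2.63%, 2.57% and 1.83% in control libraries. With libraries scaled by the pool, edgeR called 0 genes of all tested, and adjusted p-values were 0.515 for RPS26, 0.404 for RPS23 and 0.342 for RPL26. This scaling carries the swing of the pool between libraries into every other gene, and the adjustment runs over all genes. These values therefore cannot decide whether the shares of members differ.

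**Figure D5:**
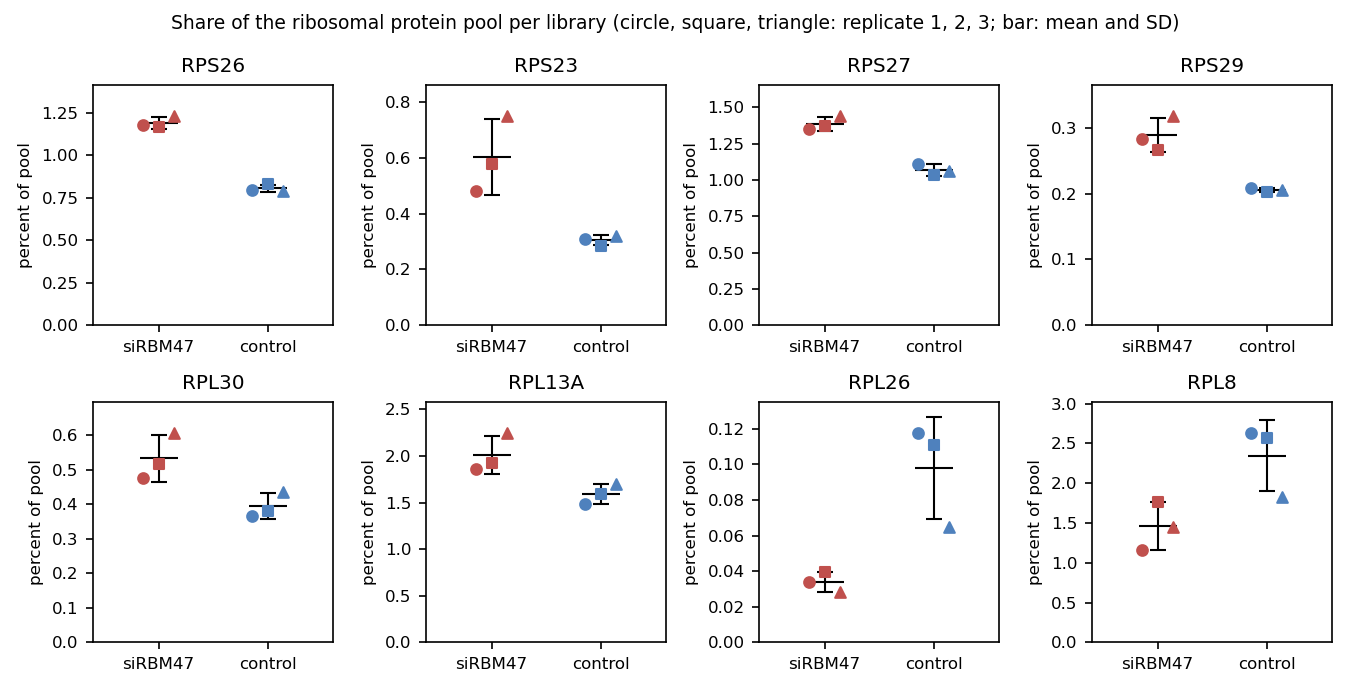
Percent of the summed ribosomal protein counts held by single genes in each library, with siRBM47 left of control and mean and SD bars. RPS26 is at 1.17% to 1.23% in siRBM47 libraries and 0.793% to 0.829% in controls.

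Of the 62 members matched in RefSeq, those with the pyrimidine start described above had a median log2 fold change of -0.24 (38 of 46 negative). Those matched but without it had a median of -0.08 (12 of 16 negative). Of the members whose starts are shown above and whose fold changes were positive, RPS26 and RPS29 were without it, and RPS23, RPL13A and RPLP0 had it. This is a description, and the difference was not tested.

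Genes tied to the ribosome but outside the symbol rule gave a wider view. Of further components of the small subunit, RACK1 was at a log2 fold change of -0.44 (1130 ± 110 CPM in siRBM47, 1536 ± 461 CPM in control libraries, SD, n = 3 each) and FAU at -0.07, and RACK1 fell by 0.66 without control 3 (edgeR adjusted p = 0.00511). Among 6 tested paralogs, RPS27L was at 0.29, RPL7L1 at 0.22 and RPL36AL at -0.31. Without control 3 RPS27L was at 0.12 and RPL7L1 at 0.15, and RPL36AL fell by 0.63 (edgeR adjusted p = 0.0132). RPL22L1 was at -0.02 and RPL39L at 0.03. With all libraries, edgeR called 0 genes of either list, and 0 had an unadjusted p under 0.05. It also called 0 genes of the translation factor, assembly, RNA polymerase I, regulator and mitochondrial ribosomal protein lists described next.

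Translation factors and other genes listed for TOP messages had a median of -0.08 over 19 tested (13 negative), with EEF2 at -0.43, EIF3M at 0.26 and EIF4A2 at -0.23. The starts of these genes were not looked up singly. Without control 3 the median of this list was -0.10. The low level of control 3 was not particular to the ribosomal protein genes. Its median log2 difference from controls 1 and 2 was -0.86 for them, -0.84 for ribosome assembly genes, -0.74 for ribosomal protein pseudogenes, -0.69 for mitochondrial ribosomal proteins and -0.62 for the paralogs. It was -0.32 for RNA polymerase I genes, -0.23 for regulators of TOP messages, 0.05 for the list with the translation factors and 0.02 over all tested genes.

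The 25 tested ribosome assembly genes had a median of 0.00 (13 positive), with LTV1 at 0.89, SBDS at 0.37 and WDR12 at -0.35, and 1 was higher and 0 lower at an unadjusted p under 0.05, beside 7.15% and 8.94% of all tested genes. Without control 3 their median was -0.18 (17 negative), with 6 called lower and 1 higher, beside 11.2% and 9.97% of all genes, and LTV1 rose by 0.70 (edgeR adjusted p = 0.0384). The 15 RNA polymerase I genes, which transcribe ribosomal RNA, had a median of 0.08 (10 positive), with RRN3 at 0.41, POLR1G at 0.54 and POLR1F at 0.37. At an unadjusted p under 0.05, 1 of these genes was higher and 0 lower, beside 7.15% and 8.94% of all tested genes. Without control 3 the RNA polymerase I genes had a median of -0.07 (6 positive), POLR1G was at 0.20, and edgeR called 0 of them.

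Regulators of TOP messages had a median of -0.15 over 15 (11 negative), with ZNF692 at -0.97, EIF4EBP2 at 0.49 and LARP1 at -0.40. At an unadjusted p under 0.05, 2 of these genes were lower and 1 higher, beside 8.94% and 7.15% of all tested genes. Without control 3 the regulators had a median of -0.21, with 4 called lower and 1 higher, beside 11.2% and 9.97% of all genes. In that fit ZNF692 fell by 1.23, LARP1 fell by 0.50 and EIF4EBP2 rose by 0.61 (edgeR adjusted p = 0.00103, 0.0262 and 0.0115). The 75 tested mitochondrial ribosomal protein genes had a median of 0.01 (39 positive). There were 6 lower and 5 higher at an unadjusted p under 0.05, near the 8.94% and 7.15% of all tested genes. MRPL12 was at -2.0, MRPL24 at -1.09 and MRPL33 at 0.47 (edgeR adjusted p = 0.166, 0.208 and 0.247). MRPL12 had 5.25, 8.80 and 6.54 CPM in siRBM47 and 43.2, 34.1 and 5.16 CPM in control libraries, with control 3 below all others. For MRPL24 control 3 lay among the siRBM47 libraries. Without control 3 the mitochondrial ribosomal protein genes had a median of -0.18, with 16 lower and 1 higher of 75, beside 11.2% and 9.97% of all genes. The cytosolic ribosomal protein genes were then at a median of -0.44, with 39 lower and 1 higher of 76. As a set chosen after the values were seen, 264 other short, abundant protein-coding genes had medians of -0.02 with all libraries and -0.09 without control 3. With all libraries edgeR called 1 of them higher and 2 lower, beside 0.0823% and 0.137% of all tested genes. Without control 3 it called 34 of these 264 genes higher and 51 lower, beside 9.97% and 11.2% of all genes. Control 3 differed from controls 1 and 2 by a median of -0.30 on the log2 scale over this set.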

How the data were processed

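Total RNA of U87 cells was sequenced after library preparation with a kit that does not mark strand, per the labels' protocols. The submitters' processing notes name HISAT2 2.0.5, featureCounts 1.5.0-p3 and the hg38 genome. How reads that match several places were treated, the strand setting and the annotation release are not given in any source used here. Each deposited table pairs raw counts with FPKM, per the file headers. FPKM served for levels per length and for no test. Groups came from the labels, and totals were 15575297 to 18128549 counts per library; intervals cover counting and replicate spread of these libraries only.

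Symbols were looked up by gene identifier (5909 had none), and positions from GENCODE release 29 (GRCh38). Start sequences came from RefSeq (GRCh38.p14). Genes passing filterByExpr with a minimum count of 10 were tested with edgeR 4.0.16 (R 4.3.3; quasi-likelihood test, TMM scaling, no replicate term), and p-values were adjusted by Benjamini-Hochberg over all tested genes with a threshold of 0.05. Alternatives were DESeq2 1.42.0, limma-voom (limma 3.58.1), other scalings and filters, a gene length offset, omission of each library and a replicate block. Scaling by the ribosomal protein pool and adding pseudogene counts were chosen after seeing the data. The edgeR step was tested on simulated data with 200 changed genes. It recovered 33.3% of 2-fold and 88.3% of 4-fold changes, and 9 of its 124 calls were false. Most changes of 2-fold or less would thus be missed in such data.

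The members and comparison lists were chosen with earlier results of these data known. Genes named were the 8 members with the smallest p in each direction, the 5 highest and 5 lowest by FPKM, 12 set by their roles, RBM47 and 3 genes by p of each comparison list. Others named for groups that did not overlap in the pool, and the remaining components and paralogs, were added after values were seen. Short, abundant genes were those no longer than the 75th percentile of the members' lengths and at 8 or more in mean log2 CPM. Some genes that these rules take are left out of this account.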

Additional observations from a re-analysis of the deposited data

How the results depend on the processing

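The median log2 fold change of the members stayed negative under every alternative run. Genes called over the whole table numbered 32 with edgeR, 637 with DESeq2, 804 without a count filter and 0 when scaled by the ribosomal protein pool, and 0 to 3156 with a library left out (0 without each siRBM47 replicate, 18 without control replicate 1, 12 without control replicate 2, 3156 without control replicate 3). Members called numbered 0 with edgeR, 2 with DESeq2, 6 without a filter (RPS23 higher; RPL26, RPL23A, RPL8, RPL36 and RPS15A lower) and 0 to 40 with a library left out. With the replicate block 39 genes and 0 members were called and the members' median was -0.15. Same-numbered libraries correlated at -0.0364, 0.127 and 0.116 in their deviations from the group mean, and differently numbered ones at -0.206 to 0.2. With 3 libraries per group these values cannot settle whether the numbers pair the samples. With a library left out the median ran from -0.436 to -0.0164 and the log2 ratio of the pool's share from -0.344 to 0.00614.

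Single log2 fold changes changed sign in 46 of the single-gene comparisons, kept direction and call in 844, and passed the threshold in 35. With limma-voom FAU was at 0.0312, RBM47 at 0.0984, RPL35 at 0.0759 and RPL39L at -0.0151; with the replicate block they were at 0.0277, 0.118, 0.0662 and -0.00646. The gene length offset gave RPL22L1 0.0261. Pool scaling gave FAU 0.16, RPL22L1 0.17, RPL35 0.18, RPLP2 0.0399, RPS4X 0.0540, RPS6 0.102 and RPSA 0.0404. Adding pseudogenes gave RPL17 0.13, RPL36A 0.20 and RPLP0 -4.06e-04. With a library left out the ranges were -0.37 to 0.20 for FAU, -0.38 to 0.76 for RBM47, -0.0108 to 0.31 for RPL13A, -0.22 to 0.16 for RPL22L1, -0.0647 to 0.35 for RPL26L1, -0.0653 to 0.35 for RPL34, -0.42 to 0.29 for RPL35, -0.63 to 0.0567 for RPL36AL and -0.15 to 0.59 for RPL38. They were -0.21 to 0.22 for RPL39L, -0.17 to 0.20 for RPL5, -0.0854 to 0.0801 for RPLP0, -0.48 to 0.12 for RPLP2, -0.0358 to 0.42 for RPS27, -0.25 to 0.0331 for RPS4X, -0.32 to 0.14 for RPS6 and -0.27 to 0.0201 for RPSA. The cause of these changes was not tested. Among members that stayed negative with any library left out, RPL11 ran from -0.64 to -0.0270 and RPLP1 from -0.54 to -0.17. RPL39 ran from -0.81 to -0.22, RPL7A from -0.82 to -0.32, RPS25 from -0.91 to -0.32 and RPL18 from -0.80 to -0.38. RPL36 ran from -1.27 to -0.53, RPS15A from -1.10 to -0.46, RPL8 from -1.23 to -0.63, RPL23A from -1.02 to -0.65 and RPL26 from -2.16 to -1.45.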
